A study of Mus musculus with 16 samples.

Results

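The genes described are 36 lysosomal genes of the mouse, chosen by symbol from a named list of lysosomal membrane proteins, acid hydrolases, lipid handling proteins, subunits of the proton pump and 2 transcription factors. All 36 were found among the 30884 genes counted in heart RNA, and all 36 passed the filter on low counts that left 14716 genes to be tested. The lowest count of any of them in any library was 24. Hearts came from male, wild type C57BL/6 mice aged 8 weeks, taken 5 days after the injections, in 4 groups of 4 libraries. DOX_NMN mice received nicotinamide mononucleotide (NMN, a precursor of the coenzyme NAD) at 500 mg/kg into the peritoneum and, 30 min later, a single injection of doxorubicin at 15 mg/kg by the same route. DOX_Vehicle mice received saline and then doxorubicin, an anthracycline used against tumours that can injure heart muscle. Sham_NMN mice received NMN and then saline, and Sham_Vehicle mice received saline at both times. Whether a library holds RNA of 1 heart or of several is not given in the sources used here. Replicates are told apart by a number alone, so a p-value reflects how far these libraries spread, which may be technical in part.

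Lysosomes are acid compartments in which proteins, glycogen, glycans and lipids delivered by endocytosis and autophagy are broken down. Their acidity comes from the vacuolar proton pump (V-ATPase), in which a V1 sector on the cytosolic side hydrolyses ATP and turns a rotor, and a V0 sector in the membrane carries the protons. TFEB and TFE3 are transcription factors of the MiT/TFE family that are held in the cytosol while the kinase complex mTORC1 is active at the lysosome, and that otherwise enter the nucleus and bind E-boxes of the form CACGTG in many lysosomal genes. In heart muscle, loss of LAMP2 in humans causes Danon disease, and loss of acid alpha-glucosidase (GAA) in humans causes glycogen storage in the heart.

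Promoters are shown because TFEB and TFE3 are among the 36 genes and because the E-box that they bind stands in front of genes that rose, fell or did not pass. RefSeq windows on GRCm38.p6, from 250 bases before to 50 after a transcription start, were at hand for 30 of the 36 genes (38 windows). CACGTG, which reads the same on both strands, was found in 11 of these 30 genes (36.7%), against 8.09% of 27025 genes with a window. The longer TCACGTGA, which contains CACGTG and is also its own reverse complement, was found in 7 of 30 (23.3%), against 1.12% of all. Ctsa, Ctsd, Gla, Cln3, Mcoln1, Atp6v0d1 and Atp6v1a held the longer form. The following stretches of 150 bases lie in those windows, are written 5′ to 3′ on the strand of the gene, and carry CACGTG in capitals.
Lamp1 (chr8:13159011-13159160, plus strand): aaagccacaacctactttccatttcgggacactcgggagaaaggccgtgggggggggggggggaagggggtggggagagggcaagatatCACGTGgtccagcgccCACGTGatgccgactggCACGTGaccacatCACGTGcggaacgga
Mcoln1 (chr8:3500369-3500518, plus strand): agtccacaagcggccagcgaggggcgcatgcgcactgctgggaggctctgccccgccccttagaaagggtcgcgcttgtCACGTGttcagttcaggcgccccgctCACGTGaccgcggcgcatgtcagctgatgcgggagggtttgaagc
Ctsd (chr7:142387828-142387977, minus strand): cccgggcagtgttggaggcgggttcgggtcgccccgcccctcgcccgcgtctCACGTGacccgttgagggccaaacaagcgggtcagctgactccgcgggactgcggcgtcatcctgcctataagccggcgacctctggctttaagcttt
Gaa (chr11:119267813-119267962, plus strand): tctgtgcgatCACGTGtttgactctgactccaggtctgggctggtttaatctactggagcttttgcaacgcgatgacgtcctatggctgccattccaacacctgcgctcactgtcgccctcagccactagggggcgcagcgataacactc
Glb1 (chr9:114400928-114401077, plus strand): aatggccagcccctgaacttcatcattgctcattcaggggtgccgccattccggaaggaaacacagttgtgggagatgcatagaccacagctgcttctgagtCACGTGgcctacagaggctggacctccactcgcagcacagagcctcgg
Atp6v1a (chr16:44139260-44139409, minus strand): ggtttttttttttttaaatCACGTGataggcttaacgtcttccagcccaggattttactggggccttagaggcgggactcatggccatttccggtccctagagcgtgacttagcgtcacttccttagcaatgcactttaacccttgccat
Lamp1 held 4 E-boxes, whose first bases lay at -61, -45, -28 and -15 from the start, and Mcoln1 held 2, at -71 and -45. The stretches of Ctsd and Gaa, which rose with doxorubicin, and of Glb1 and Atp6v1a, which fell, each held 1. Of the 11 genes with CACGTG in a window, 5 rose in DOX_Vehicle against Sham_Vehicle, 2 fell and 4 did not pass (median log2 fold 0.24). Of the 19 genes with a window that lacked it, 7 rose, 3 fell and 9 did not pass (median 0.17). The 6 genes without a window were Ctsb, Ctsh, Npc1, Atp6v1b2, Atp6v1c1 and Atp6v1h, of which 3 rose, 0 fell and 3 did not pass (median 0.30). Over all 14716 genes tested, 24.8% rose and 23.9% fell (median 0.0054). The test is described with that comparison below. A match is a run of letters, and no binding was measured.

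Libraries held 13927970 to 16400069 counts, and all replicate pairs differed by more than counting error (chi-square per gene 3.80 to 69.0). The libraries fell into 2 parts that crossed the groups. They were divided at the widest gap in the averaged log2 CPM of Scand1, Cox11 and Mrps34, 3 genes chosen with their values known. CPM is read counts relative to the library total, which was TMM-scaled for the gene and marker levels but not for this division. The smaller part held 6 libraries, replicate 4 of DOX_NMN, replicates 3 and 4 of DOX_Vehicle, replicate 4 of Sham_NMN and replicates 3 and 4 of Sham_Vehicle, and the larger part held the other 10. No label names a batch that matches it, and results that changed within a part are given with the split, after the comparisons. All 12 cardiomyocyte markers were detected in every group, and their summed level was 52200 to 83800 CPM in DOX_NMN, 30500 to 41000 in DOX_Vehicle, 79200 to 87800 in Sham_NMN and 82800 to 91800 in Sham_Vehicle. In RNA from whole hearts, fewer cells of a type and less RNA per cell cannot be told apart.

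Per unit of gene length, as deposited FPKM (fragments scaled to gene length and library total), levels of the 36 genes differed widely. Psap, the precursor of the saposins that present lipids to hydrolases, was highest, with 604 ± 44.0 FPKM in DOX_Vehicle and 491 ± 24.9 in Sham_Vehicle (SD, n = 4 each). Ctsd came next, with 193 ± 3.02 FPKM in DOX_Vehicle and 111 ± 8.14 in Sham_Vehicle. Lamp1 and Ctsb followed, Ctsb at 65.7 ± 4.07 FPKM in DOX_Vehicle and 74.8 ± 4.55 in Sham_Vehicle. The lowest was Gla, the alpha-galactosidase that is missing in human Fabry disease, with 0.816 ± 0.171 FPKM in DOX_Vehicle and 0.825 ± 0.0795 in Sham_Vehicle. Of the 35 neighbouring pairs in the Sham_Vehicle order, 16 differed by more than the larger of their SDs, and 19 did not. Among the pump genes the range in Sham_Vehicle was wide too, with Atp6ap1 at 42.9 ± 1.72 FPKM at the top and Atp6v1h at 2.12 ± 0.142 at the bottom.

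**Figure D1:**
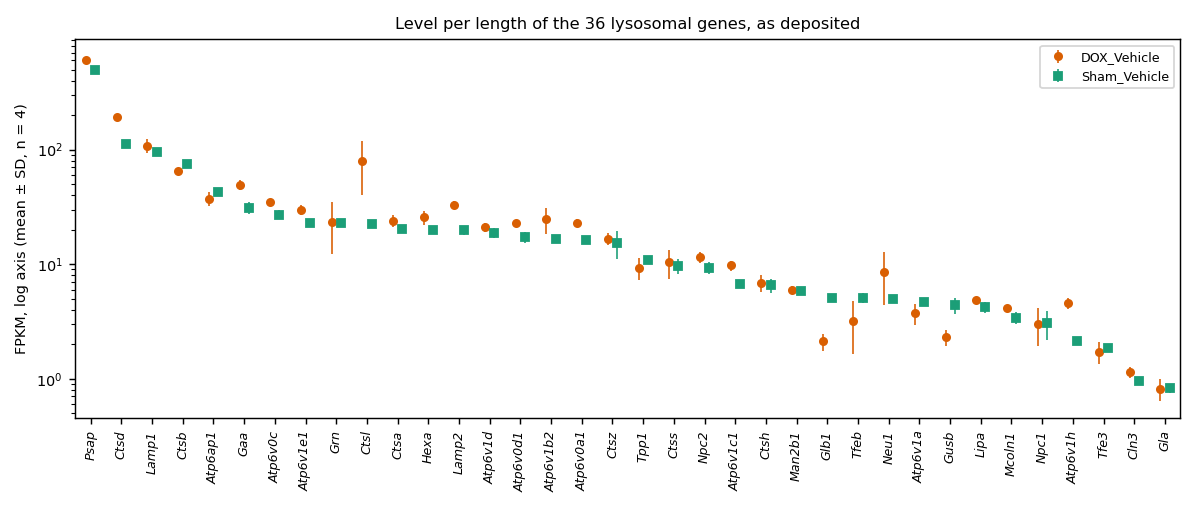
Deposited FPKM of the 36 lysosomal genes on a log axis, in order of the Sham_Vehicle mean, with DOX_Vehicle left of Sham_Vehicle for each gene and bars for the SD of 4 libraries. Psap lies highest and Gla lowest in both groups, and Ctsl, Neu1, Grn and Tfeb, described with the library split, have long DOX_Vehicle bars.

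The comparison of DOX_Vehicle with Sham_Vehicle shows the effect of doxorubicin without NMN. Among the 36 lysosomal genes, 15 rose (41.7%, beside 24.8% of the 14716 genes tested), 5 fell (13.9%, beside 23.9%) and 16 did not pass, by edgeR's quasi-likelihood test at an adjusted p under 0.05. The median log2 fold of the 36 was 0.20, beside 0.0054 over all genes tested, and 26 of the 36 folds were above 0. The genes that rose included all 3 V0 subunits and 4 of 6 V1 subunits among the 36, Lamp2, and the hydrolases Ctsl, Ctsd, Neu1 and Gaa. The genes that fell were Glb1, Gusb, Tfeb, Atp6v1a and Tpp1. Groups that do not overlap were counted too, and every DOX_Vehicle library was above every Sham_Vehicle library for 15 of the 36 genes (beside 19.7% of all genes) and below for 5 (beside 19.9%). Summed over the 36 genes, the level was 4257 to 5206 CPM in DOX_NMN, 4931 to 5846 in DOX_Vehicle, 3993 to 4242 in Sham_NMN and 4025 to 4394 in Sham_Vehicle.

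**Figure D2:**
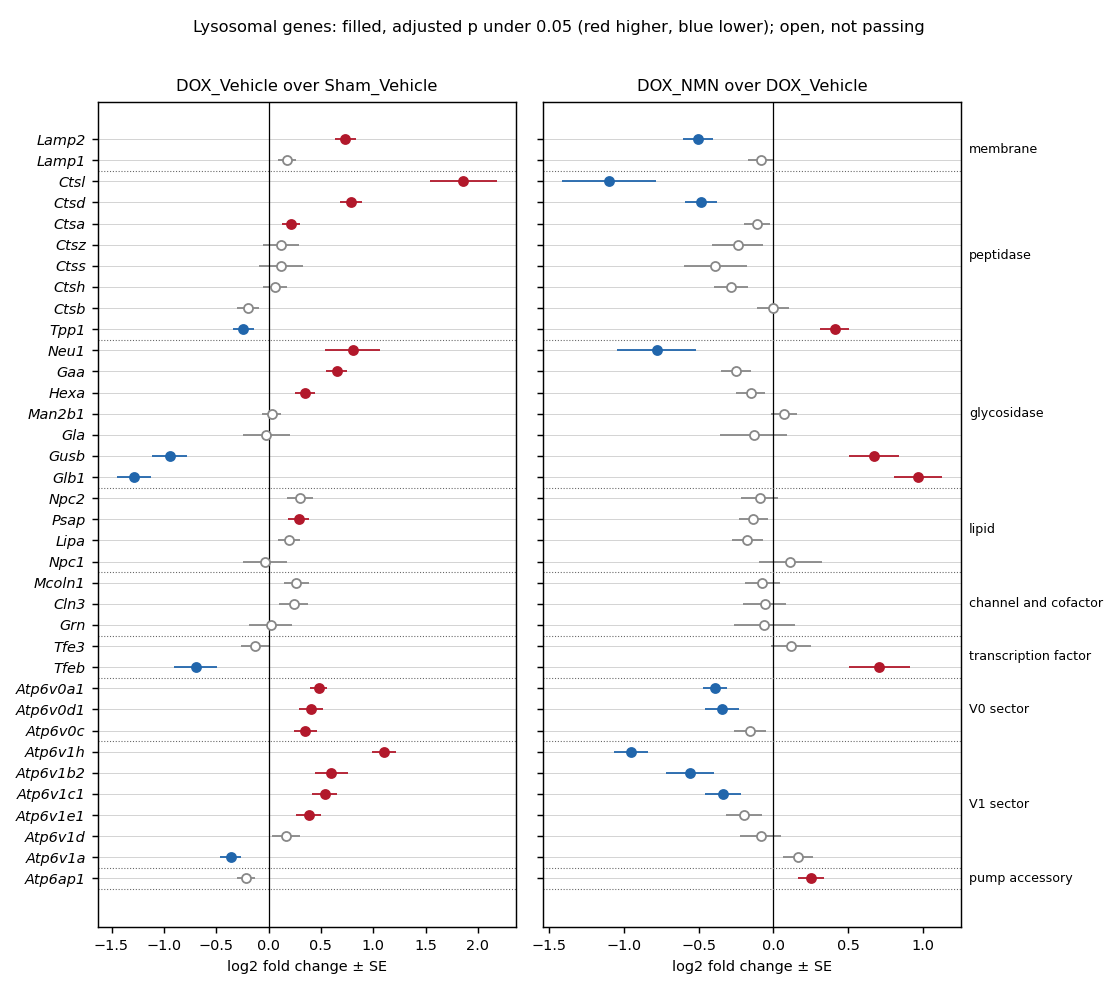
Log2 fold change with its SE for each of the 36 genes, grouped by role, for DOX_Vehicle over Sham_Vehicle (left) and DOX_NMN over DOX_Vehicle (right). Filled points passed an adjusted p of 0.05, 15 higher and 5 lower on the left and 5 higher and 9 lower on the right, and open points did not.

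Of the lysosomal membrane proteins, Lamp2 (ENSMUSG00000016534.15, chrX:38401357-38456454, minus strand, GRCm38, as are all positions below), which is needed for fusion with autophagosomes and for chaperone-mediated autophagy, had 253, 206, 199 and 233 CPM in DOX_NMN and 272, 310, 340 and 344 in DOX_Vehicle libraries. It had 195, 199, 211 and 189 CPM in Sham_NMN and 203, 202, 173 and 184 in Sham_Vehicle. Every DOX_Vehicle library lay above every Sham_Vehicle library, and Lamp2 rose (log2 fold 0.73, SE 0.10, adjusted p = 3.20e-05). Lamp1 (chr8:13159161-13175338, plus strand), its abundant relative, had 245, 276, 286 and 290 CPM in DOX_NMN and 335, 269, 265 and 293 in DOX_Vehicle libraries. It had 258, 249, 255 and 242 CPM in Sham_NMN and 253, 242, 266 and 266 in Sham_Vehicle. The DOX_Vehicle and Sham_Vehicle ranges of Lamp1 overlapped and its difference did not pass (log2 fold 0.18, SE 0.09, adjusted p = 0.102). Of the exonic bases of Lamp1, 9.31% are shared with Grtp1 on the other strand, which counts from a kit that does not keep strand cannot separate.

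Among the 8 peptidases, 3 rose, 1 fell and 4 did not pass. Ctsl (chr13:64359337-64370890, minus strand), a cysteine protease, showed 337, 198, 147 and 313 CPM in DOX_NMN and 294, 269, 764 and 808 in DOX_Vehicle libraries. It had 156, 147, 148 and 149 CPM in Sham_NMN and 146, 136, 144 and 161 in Sham_Vehicle. All DOX_Vehicle libraries were above all Sham_Vehicle libraries, and replicates 3 and 4 stood far above replicates 1 and 2. Its fold was the highest of the 36 (log2 fold 1.86, SE 0.32, adjusted p = 0.000219), although 26.8% of its exonic bases are shared with the antisense gene Gm47123 and 6.09% with the pseudogene Gm49230. Ctsd (chr7:142375911-142388038, minus strand), the main aspartic protease of lysosomes, stood at 329, 317, 277 and 381 CPM in DOX_NMN and 441, 421, 486 and 482 in DOX_Vehicle libraries. It had 295, 250, 287 and 239 CPM in Sham_NMN and 249, 240, 289 and 281 in Sham_Vehicle. The DOX_Vehicle and Sham_Vehicle ranges did not overlap and Ctsd rose (log2 fold 0.79, SE 0.11, adjusted p = 3.64e-05), with 34.4% of its exonic bases shared with Gm49369 on the same strand.

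Tpp1 (chr7:105744811-105752235, minus strand), a tripeptidyl peptidase whose loss causes a human neuronal ceroid lipofuscinosis, was measured at 64.1, 64.4, 61.6 and 63.5 CPM in DOX_NMN and 52.8, 54.5, 40.3 and 43.2 in DOX_Vehicle libraries. It had 59.0, 53.0, 56.1 and 63.1 CPM in Sham_NMN and 57.6, 57.3, 55.6 and 54.7 in Sham_Vehicle. Its DOX_Vehicle libraries were all below its Sham_Vehicle libraries, and it fell by a small margin (log2 fold -0.24, SE 0.10, adjusted p = 0.0481). That call held without any one of DOX_Vehicle replicate 1, DOX_Vehicle replicate 2 and Sham_NMN replicate 4 and was lost without any one of the other 13 libraries (adjusted p 0.0515 to 0.169). Ctsa, the protective protein that holds Glb1 and Neu1 in a complex, rose at the margin (log2 fold 0.21, SE 0.09, adjusted p = 0.0495), and that call held only without DOX_NMN replicate 3, DOX_NMN replicate 4 or Sham_Vehicle replicate 3 among the 16 omissions, with adjusted p 0.0501 to 0.151 in the other 13. Ctsa shares 10.5% of its exonic bases with Pltp and 6.87% with Neurl2, both on the other strand. Of the other cysteine proteases, Ctss, which cuts the invariant chain in antigen presenting cells, had a log2 fold of 0.12 and did not pass. Nor did Ctsz, Ctsh and Ctsb, at log2 folds of 0.12, 0.06 and -0.20. Ctsb shares 12.8% of its exonic bases with Fdft1 on the other strand.

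The 7 glycosidases split, with 3 higher, 2 lower and 2 not passing. Gaa (chr11:119267887-119285454, plus strand), which breaks down glycogen, had 226, 186, 169 and 207 CPM in DOX_NMN and 233, 242, 243 and 220 in DOX_Vehicle libraries. It had 164, 149, 170 and 148 CPM in Sham_NMN and 159, 165, 138 and 136 in Sham_Vehicle. DOX_Vehicle libraries were all above Sham_Vehicle libraries, and Gaa rose (log2 fold 0.65, SE 0.10, adjusted p = 8.51e-05). Hexa, the alpha subunit of beta-hexosaminidase, also rose (log2 fold 0.35, SE 0.10, adjusted p = 0.0073), with 12.8% of its exonic bases shared with Tmem202 on the other strand.

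Glb1 (chr9:114401076-114474898, plus strand), the beta-galactosidase of ganglioside and keratan sulfate breakdown, showed 8.03, 13.6, 13.2 and 14.9 CPM in DOX_NMN and 7.32, 6.48, 5.38 and 6.25 in DOX_Vehicle libraries. It had 14.3, 15.3, 14.1 and 14.9 CPM in Sham_NMN and 13.9, 14.8, 16.8 and 16.5 in Sham_Vehicle. All DOX_Vehicle libraries lay below all Sham_Vehicle libraries, and the fall of Glb1 was the deepest of the 36 (log2 fold -1.28, SE 0.16, adjusted p = 1.65e-05). Gusb (chr5:129989011-130003049, minus strand), the beta-glucuronidase, read 11.7, 19.4, 21.2 and 14.5 CPM in DOX_NMN and 11.9, 10.6, 9.12 and 10.3 in DOX_Vehicle libraries. It had 20.4, 20.3, 20.5 and 22.0 CPM in Sham_NMN and 20.1, 15.4, 22.1 and 23.1 in Sham_Vehicle. Again no DOX_Vehicle library reached the lowest Sham_Vehicle library, and Gusb fell (log2 fold -0.94, SE 0.17, adjusted p = 0.000281). Neu1 (chr17:34931253-34935953, plus strand), the sialidase that is active in the complex with Ctsa and Glb1 and that was singled out after its values were seen, stood at 17.7, 19.8, 20.2 and 18.9 CPM in DOX_NMN and 18.0, 17.1, 48.6 and 48.2 in DOX_Vehicle libraries. It had 18.1, 19.4, 19.5 and 18.4 CPM in Sham_NMN and 19.6, 18.2, 19.0 and 18.6 in Sham_Vehicle. Replicates 3 and 4 of DOX_Vehicle were well above every other library while replicates 1 and 2 lay just below the Sham_Vehicle range. The pooled rise of Neu1 (log2 fold 0.80, SE 0.26, adjusted p = 0.0186) was lost without DOX_Vehicle replicate 3 or without replicate 4 (log2 fold 0.56 each, adjusted p 0.0878 and 0.0866). That call was also lost with limma-voom (0.62, adjusted p = 0.0732) and in a fit of only the groups compared (0.79, adjusted p = 0.0817). Across the complex, Neu1 rose in the pooled fit, Ctsa rose at the margin and Glb1 fell. Man2b1 (0.03), an alpha-mannosidase, and Gla (-0.02) had log2 folds near 0 that did not pass.

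Of the 4 lipid handling genes, Psap rose (log2 fold 0.29, SE 0.10, adjusted p = 0.0245), with a mean of 1663 ± 73.4 CPM in DOX_Vehicle and 1362 ± 98.8 CPM in Sham_Vehicle (SD, n = 4 each). The Psap call was lost without DOX_Vehicle replicate 1 or 3 or Sham_Vehicle replicate 1, 2 or 4 (log2 folds 0.26 to 0.28, adjusted p 0.0542 to 0.0696). Npc2, which hands cholesterol to Npc1 for export from the lysosome, did not pass (log2 fold 0.30, adjusted p = 0.055), but was called without DOX_Vehicle replicate 2 (log2 fold 0.40, adjusted p = 0.00923) and without Sham_Vehicle replicate 4 (0.38, adjusted p = 0.0264). Npc1 itself (log2 fold -0.04, adjusted p = 0.904) and Lipa, the acid lipase (log2 fold 0.20, adjusted p = 0.131), did not pass.

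Mcoln1 (chr8:3500457-3515232, plus strand), the TRPML1 channel that releases calcium from lysosomes, had 31.2, 33.3, 26.6 and 27.7 CPM in DOX_NMN and 31.3, 27.6, 30.6 and 35.7 in DOX_Vehicle libraries. It had 31.4, 31.9, 30.9 and 23.7 CPM in Sham_NMN and 25.9, 29.9, 23.9 and 24.3 in Sham_Vehicle. Its DOX_Vehicle and Sham_Vehicle ranges overlapped and the difference did not pass (log2 fold 0.27, SE 0.12, adjusted p = 0.0721), although it was called without DOX_Vehicle replicate 2 (log2 fold 0.32, adjusted p = 0.0389) and without Sham_Vehicle replicate 2 (0.34, adjusted p = 0.0374). Cln3, a lysosomal membrane protein, did not pass (log2 fold 0.24, adjusted p = 0.177). Grn (chr11:102430315-102437048, plus strand), progranulin, which is delivered to lysosomes and cut into granulins there, was singled out after its values were seen and had 67.8, 82.3, 74.7 and 84.3 CPM in DOX_NMN and 123, 93.8, 56.6 and 48.8 in DOX_Vehicle libraries. It had 81.4, 77.3, 83.8 and 86.3 CPM in Sham_NMN and 77.5, 72.9, 85.2 and 82.5 in Sham_Vehicle. The DOX_Vehicle libraries of Grn lay on both sides of all other libraries, and its mean difference was close to 0 (log2 fold 0.02, SE 0.20, adjusted p = 0.946).

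Of the transcription factors, Tfeb (chr17:47737030-47792419, plus strand) was measured at 28.3, 32.6, 29.5 and 26.3 CPM in DOX_NMN and 21.7, 26.5, 11.5 and 11.6 in DOX_Vehicle libraries. It had 28.5, 31.9, 28.2 and 27.8 CPM in Sham_NMN and 28.7, 32.6, 26.7 and 27.8 in Sham_Vehicle. All DOX_Vehicle libraries were below all Sham_Vehicle libraries, replicates 3 and 4 far below and replicate 2 by a little, and Tfeb mRNA fell (log2 fold -0.70, SE 0.20, adjusted p = 0.00994), a call that did not hold in a fit of only the groups compared (-0.70, adjusted p = 0.0544). Tfe3 (chrX:7762560-7775202, plus strand) had 15.9, 19.6, 15.4 and 17.5 CPM in DOX_NMN and 16.4, 18.7, 13.8 and 14.0 in DOX_Vehicle libraries. It had 13.8, 15.1, 14.6 and 20.0 CPM in Sham_NMN and 15.8, 16.3, 18.9 and 17.8 in Sham_Vehicle. Its groups overlapped and Tfe3 did not pass (log2 fold -0.13, SE 0.14, adjusted p = 0.457). Their relative Mitf, from the list of MiT/TFE regulation, fell (log2 fold -0.79, SE 0.15, adjusted p = 0.000645), with 39.9 ± 11.1 CPM in DOX_Vehicle and 69.0 ± 10.2 CPM in Sham_Vehicle. mRNA levels say nothing of where these proteins were in the cell.

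All 3 V0 subunits of the proton pump rose. Atp6v0a1 (chr11:101009452-101063719, plus strand), which forms the path of the protons together with the ring, stood at 117, 115, 112 and 117 CPM in DOX_NMN and 137, 139, 175 and 154 in DOX_Vehicle libraries. It had 105, 105, 101 and 109 CPM in Sham_NMN and 106, 104, 114 and 109 in Sham_Vehicle. The DOX_Vehicle libraries were all above the Sham_Vehicle libraries (log2 fold 0.48, SE 0.08, adjusted p = 0.000213). Atp6v0d1, which joins the ring to the rotor, rose (log2 fold 0.41, SE 0.11, adjusted p = 0.00722), and so did Atp6v0c, the subunit of the proton-carrying ring (log2 fold 0.35, SE 0.11, adjusted p = 0.0131).

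Of the 6 V1 subunits among the 36 genes, 4 rose, 1 fell and Atp6v1d, of the rotor, did not pass (log2 fold 0.17, adjusted p = 0.314). Atp6v1h (chr1:5070018-5162529, plus strand), a regulatory subunit that in yeast silences V1 when it is detached from V0, had 21.2, 23.2, 22.1 and 26.5 CPM in DOX_NMN and 37.4, 40.6, 51.2 and 50.8 in DOX_Vehicle libraries. It had 20.1, 22.9, 19.3 and 21.8 CPM in Sham_NMN and 21.9, 20.1, 19.8 and 21.8 in Sham_Vehicle. Every DOX_Vehicle library was above every library of the other 3 groups, and the p of Atp6v1h was the smallest among the 36 (log2 fold 1.11, SE 0.11, adjusted p = 3.41e-06). Atp6v1b2 (chr8:69088646-69113711, plus strand), the B subunit of the ATP-hydrolysing head, had 86.0, 90.6, 85.4 and 102 CPM in DOX_NMN and 97.4, 97.6, 169 and 173 in DOX_Vehicle libraries. It had 82.5, 87.0, 86.5 and 81.2 CPM in Sham_NMN and 94.8, 82.5, 89.8 and 87.1 in Sham_Vehicle. Its DOX_Vehicle libraries were above the Sham_Vehicle libraries, narrowly in replicates 1 and 2 and widely in replicates 3 and 4 (log2 fold 0.60, SE 0.16, adjusted p = 0.00554).

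Atp6v1c1 (chr15:38661933-38692446, plus strand), which clamps the stalks when the sectors are joined, showed 45.8, 39.2, 37.6 and 52.6 CPM in DOX_NMN and 50.8, 44.7, 60.5 and 65.2 in DOX_Vehicle libraries. It had 38.8, 38.6, 38.3 and 34.0 CPM in Sham_NMN and 39.4, 37.3, 38.1 and 37.6 in Sham_Vehicle. No DOX_Vehicle library reached down to the Sham_Vehicle range, and Atp6v1c1 rose (log2 fold 0.54, SE 0.12, adjusted p = 0.00179). Atp6v1e1, of the outer stalks, rose (log2 fold 0.39, SE 0.12, adjusted p = 0.0135), which was lost without DOX_Vehicle replicate 4 (log2 fold 0.30, adjusted p = 0.0548). Atp6v1a (chr16:44085402-44139705, minus strand), the catalytic A subunit that pairs with B in the head, was measured at 23.2, 24.3, 27.2 and 25.8 CPM in DOX_NMN and 22.0, 26.8, 20.2 and 20.7 in DOX_Vehicle libraries. It had 29.4, 27.9, 29.0 and 28.9 CPM in Sham_NMN and 26.3, 27.4, 29.3 and 32.0 in Sham_Vehicle. Replicate 2 of DOX_Vehicle lay within the Sham_Vehicle range and the other 3 below it, and Atp6v1a fell (log2 fold -0.36, SE 0.10, adjusted p = 0.00753), opposite to Atp6v1b2. Atp6ap1, an accessory protein of the pump, did not pass (log2 fold -0.21, adjusted p = 0.0545), but was called lower without DOX_NMN replicate 1, DOX_NMN replicate 4, DOX_Vehicle replicate 2 or Sham_NMN replicate 4 (log2 folds -0.25 to -0.22, adjusted p 0.0379 to 0.0453).

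**Figure D3:**
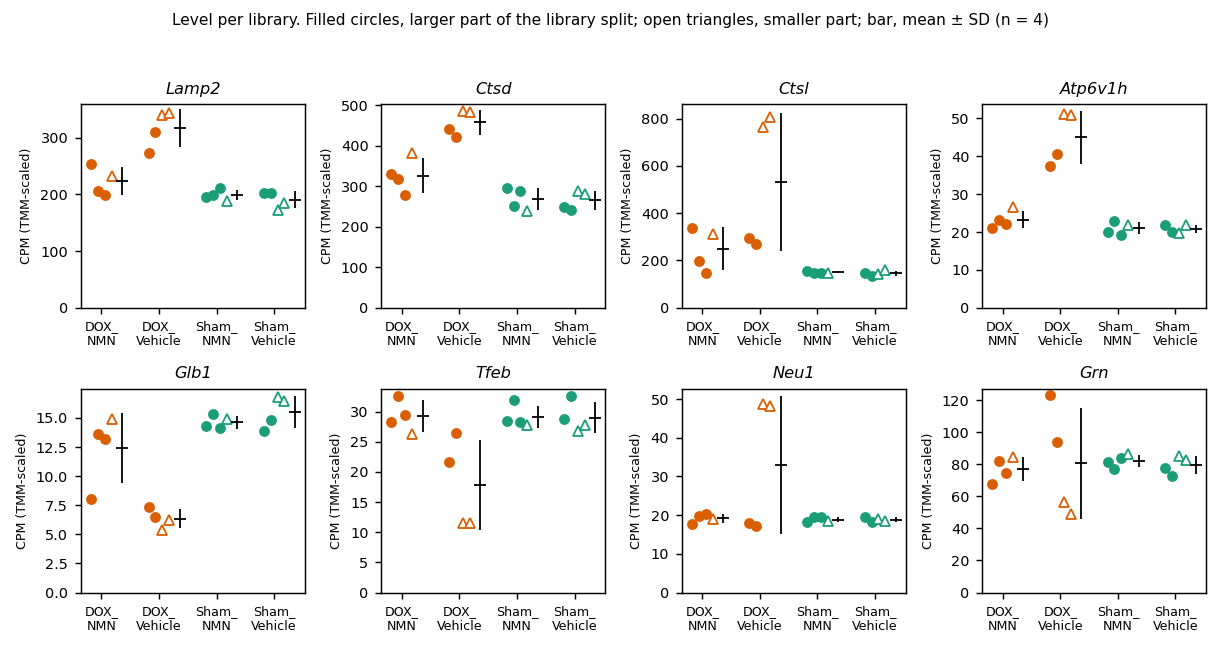
TMM-scaled CPM of 8 lysosomal genes in each library, with DOX_NMN, DOX_Vehicle, Sham_NMN and Sham_Vehicle left to right, circles for the larger and triangles for the smaller part of the library split, and bars for mean and SD of 4 libraries. Lamp2, Ctsd and Atp6v1h are high and Glb1 low in all DOX_Vehicle libraries, while Ctsl, Tfeb, Neu1 and Grn differ between the DOX_Vehicle circles and triangles.

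Genes of 5 other lysosomal lists, which do not overlap the 36, were read in the same fit. Of 35 other hydrolases and cofactors tested, 6 rose, 9 fell and 20 did not pass, a median log2 fold of -0.12. Aga, which cleaves the asparagine link of glycoproteins (log2 fold -0.82, adjusted p = 4.79e-06), Ctsc, the dipeptidyl peptidase that activates granule proteases (log2 fold -1.11, adjusted p = 0.000271), and Cpq, carboxypeptidase Q (log2 fold -0.63, adjusted p = 0.000142), fell, while Plbd2 rose (log2 fold 0.85, adjusted p = 6.52e-06). Of 23 other membrane proteins and transporters tested, 7 rose, 6 fell and 10 did not pass. Cd63, a tetraspanin of late endosomes, rose (log2 fold 1.23, adjusted p = 1.36e-05), as did Sidt2 (log2 fold 0.62, adjusted p = 0.000479), while Tpcn1, an endolysosomal cation channel, fell (log2 fold -0.86, adjusted p = 6.26e-05). Of 16 further V-ATPase subunits and assembly factors tested, 5 rose, 3 fell and 8 did not pass, with folds from -0.33 to 0.36. Atp6ap2, the (pro)renin receptor and a partner of Atp6ap1, rose (log2 fold 0.31, adjusted p = 0.00996), Ccdc115 rose (log2 fold 0.30, adjusted p = 0.0333), and the assembly factors Wdr7 (log2 fold -0.33, adjusted p = 0.00931) and Vma21 (log2 fold -0.27, adjusted p = 0.0121) fell.

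Of 27 genes of lysosomal sorting and delivery tested, 9 rose, 1 fell and 17 did not pass, a median log2 fold of 0.094. Vps16 (log2 fold 0.92, adjusted p = 4.99e-05) and Vps11 (log2 fold 0.96, adjusted p = 0.000196), core subunits of the HOPS and CORVET tethers, Arl8a, a small GTPase that moves lysosomes outward (log2 fold 0.83, adjusted p = 0.000105), and Ap3b1, of the AP-3 adaptor (log2 fold 1.10, adjusted p = 0.000161), rose. Of 25 genes of MiT/TFE regulation and mTORC1 at the lysosome tested, 8 rose, 6 fell and 11 did not pass. Rraga, a Rag GTPase that recruits mTORC1 (log2 fold 0.56, adjusted p = 8.54e-05), and Mtor, its kinase (log2 fold 0.37, adjusted p = 0.000658), rose, while Rptor, the subunit that binds the substrates of mTORC1, fell (log2 fold -0.50, adjusted p = 0.00167). Counts in all 5 lists stand beside the same 24.8% higher and 23.9% lower among all genes tested.

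Markers of cell types were read in the same comparison, beside 24.8% higher and 23.9% lower among all genes tested. Those of macrophages lay close to these shares. Of 12 cardiomyocyte markers, 10 fell and none rose. Of 21 macrophage markers, 5 rose, 5 fell and 11 did not pass, and their summed level was 274 to 403 CPM in DOX_NMN, 328 to 455 in DOX_Vehicle, 369 to 450 in Sham_NMN and 359 to 419 in Sham_Vehicle, with no marker at 0 counts in a whole group. Of 10 neutrophil markers, the 8 that could be tested all rose, with summed levels of 5.95 to 18.6 CPM in DOX_NMN, 41.0 to 127 in DOX_Vehicle, 0.774 to 10.7 in Sham_NMN and 2.09 to 8.74 in Sham_Vehicle, and 1 marker was at 0 counts in all libraries of every group but DOX_Vehicle. Of 9 fibroblast markers, 1 rose and 6 fell, and of 10 endothelial markers, 3 rose and 1 fell. The 5 markers of B cells and MHC class II that could be tested all fell, as did 3 of 4 atrial markers. All 5 erythroid markers fell, with summed levels of 0.377 to 321 CPM in DOX_NMN, 0.379 to 2.56 in DOX_Vehicle, 231 to 330 in Sham_NMN and 340 to 572 in Sham_Vehicle. The part of these shifts in the values of the lysosomal genes was not tested.

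The comparison of DOX_NMN with DOX_Vehicle shows what NMN before doxorubicin changed, and it shares the DOX_Vehicle libraries with the comparison above. Of the 36 genes, 5 were higher (13.9%, beside 17.5% of all genes tested), 9 lower (25.0%, beside 18.8%) and 22 did not pass, with a median log2 fold of -0.13 beside 0.0038 over all genes. Both shares lie close to the background. Every DOX_NMN library was above every DOX_Vehicle library for 2 of the 36 (beside 12.7% of all genes) and below for 6 (beside 12.8%). The genes that were higher in DOX_NMN were Glb1, Tfeb, Gusb, Tpp1 and Atp6ap1, and those that were lower were Ctsl, Atp6v1h, Neu1, Atp6v1b2, Lamp2, Ctsd, Atp6v0a1, Atp6v0d1 and Atp6v1c1.

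Atp6v1h had the smallest p (log2 fold -0.95, SE 0.11, adjusted p = 2.81e-05), and its 4 DOX_NMN libraries, at 21.2 to 26.5 CPM, lay below all DOX_Vehicle libraries, at 37.4 to 51.2 CPM. Lamp2 was lower in every DOX_NMN library than in every DOX_Vehicle library (log2 fold -0.51, SE 0.10, adjusted p = 0.00113), and so were Ctsd (log2 fold -0.49, SE 0.11, adjusted p = 0.00253) and Atp6v0a1 (log2 fold -0.39, SE 0.08, adjusted p = 0.00188). Glb1 was higher in each DOX_NMN library than in any DOX_Vehicle library (log2 fold 0.97, SE 0.16, adjusted p = 0.000372), and likewise Tpp1 (log2 fold 0.41, SE 0.10, adjusted p = 0.0038). Among the called genes, replicate 1 of DOX_NMN was the one nearest to the DOX_Vehicle mean for Lamp2, Glb1, Gusb, Ctsl and Atp6ap1. Replicate 4 was nearest for Atp6v1h, Ctsd, Atp6v0d1, Atp6v1b2, Atp6v1c1 and Tfeb. Replicate 3 was nearest for Neu1 and Tpp1, and replicates 1 and 4 were level for Atp6v0a1. Replicate 1 had the lowest summed cardiomyocyte markers of its group, 52200 CPM against 73600 to 83800 in the other 3. In the same comparison 10 of 12 cardiomyocyte markers were higher in DOX_NMN, 7 of 8 neutrophil markers lower, and 1 of 21 macrophage markers higher and 4 lower. Among all genes tested, 17.5% were higher and 18.8% lower. All 5 tested markers of B cells and MHC class II and all 5 erythroid markers were higher, as were 3 of 4 atrial markers. The groups overlapped for every tested erythroid and atrial marker, and for none of the 5 of B cells and MHC class II. Summed erythroid markers had 4.66, 0.377, 321 and 1.09 CPM in DOX_NMN replicates 1 to 4, beside 0.379 to 2.56 in DOX_Vehicle. Summed atrial markers had 261, 141, 21.9 and 20.8 CPM in DOX_NMN, beside 9.44 to 18.4 in DOX_Vehicle. Of 9 fibroblast markers 5 were higher and 1 lower, and of 10 endothelial markers 1 was higher and 3 lower. Their part in the values of the lysosomal genes was not tested.

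Gusb (log2 fold 0.67, SE 0.17, adjusted p = 0.0058) and Tfeb (log2 fold 0.71, SE 0.20, adjusted p = 0.0133) were higher in DOX_NMN with overlapping groups, Tfeb through replicate 2 of DOX_Vehicle at 26.5 CPM beside replicate 4 of DOX_NMN at 26.3 CPM. Ctsl was lower (log2 fold -1.10, SE 0.31, adjusted p = 0.0124), and the call was lost without replicate 3 or replicate 4 of DOX_Vehicle (log2 folds -0.87 and -0.83, adjusted p 0.0521 and 0.0561). Atp6v1b2 was lower (log2 fold -0.56, SE 0.16, adjusted p = 0.0126), a call lost without the same libraries (-0.43 and -0.41, adjusted p 0.0569 and 0.0560). Neu1 was lower (log2 fold -0.78, SE 0.26, adjusted p = 0.0291), a call lost without any one of the 4 DOX_NMN libraries or DOX_Vehicle replicate 3 or 4 (log2 folds -0.80 to -0.53, adjusted p 0.0557 to 0.132).

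Among the pump genes with smaller folds, Atp6v0d1 (log2 fold -0.34, SE 0.11, adjusted p = 0.0276) lost its call without DOX_NMN replicate 1, 2 or 3 or DOX_Vehicle replicate 3 or 4 (adjusted p 0.0576 to 0.0982). Atp6v1c1 (log2 fold -0.34, SE 0.12, adjusted p = 0.0393) kept its call only without DOX_NMN replicate 4, DOX_Vehicle replicate 1, DOX_Vehicle replicate 2, Sham_NMN replicate 4, Sham_Vehicle replicate 2 or Sham_Vehicle replicate 4, and lost it without any one of the other 10 libraries (adjusted p 0.0501 to 0.144). Atp6ap1 was higher (log2 fold 0.25, SE 0.09, adjusted p = 0.0361), which was lost without DOX_NMN replicate 2, 3 or 4 or DOX_Vehicle replicate 3 or 4 (adjusted p 0.0670 to 0.114). Gaa, which did not pass in all libraries (log2 fold -0.25, adjusted p = 0.0566), was lower without DOX_NMN replicate 1 (-0.32, adjusted p = 0.0228). Calls were also gained for Atp6v1a (0.27, adjusted p = 0.0257) and Ctss (-0.57, adjusted p = 0.0138) without DOX_Vehicle replicate 2.

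In the other lysosomal lists, DOX_NMN against DOX_Vehicle gave 9 higher and 5 lower of 35 hydrolases and cofactors, 4 higher and 6 lower of 23 membrane proteins and transporters, 2 higher and 2 lower of 16 further V-ATPase genes, 1 higher and 8 lower of 27 sorting genes, and 5 higher and 6 lower of 25 genes of MiT/TFE regulation and mTORC1. These counts stand beside 17.5% higher and 18.8% lower among all genes tested. Mitf was higher (log2 fold 0.75, adjusted p = 0.00169). Cd63 was lower (log2 fold -0.73, adjusted p = 0.0015), as was Rraga (log2 fold -0.46, adjusted p = 0.000807).

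NMN without doxorubicin, Sham_NMN against Sham_Vehicle, called 0 of the 36 genes with edgeR, and 0 were under an unadjusted p of 0.05. The same test called 0 of all 14716 genes (0%), with 342 (2.32%) under an unadjusted p of 0.05, and DESeq2 and limma-voom called 0 of the 36. Log2 folds of the 36 ran from -0.19 in Ctsz to 0.24 in Npc1, with a median of -0.032 beside -0.0071 over all genes. Lipa had the smallest p, at a log2 fold of 0.20, SE 0.10 and an unadjusted p of 0.0687.

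Doxorubicin on top of NMN, DOX_NMN against Sham_NMN, also called 0 of the 36 genes and 0 of all genes (0%) with edgeR, and DESeq2 and limma-voom called 0 of the 36. Under an unadjusted p of 0.05 were 6 of the 36 (16.7%), beside 1223 of all genes (8.31%). These 6 had positive folds, namely Ctsl (0.73), Hexa (0.34), Gaa (0.32), Ctsd (0.28), Atp6v1e1 (0.26) and Ctsa (0.19) on the log2 scale. The median log2 fold of the 36 was 0.13, beside -0.00033 over all genes, and 26 of the 36 folds were above 0.

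The interaction asks whether the doxorubicin effect with NMN (DOX_NMN against Sham_NMN) differed from that without it (DOX_Vehicle against Sham_Vehicle). It was above 0 for 1 of the 36 genes (2.78%, beside 9.49% of all genes) and below 0 for 4 (11.1%, beside 8.96%). The share below 0 lies close to the background. Glb1, which fell with doxorubicin without NMN, had the positive term (log2 fold 1.05, SE 0.22, adjusted p = 0.00564). Atp6v1h (log2 fold -0.96, SE 0.16, adjusted p = 0.0013), Lamp2 (log2 fold -0.57, SE 0.14, adjusted p = 0.0121), Ctsd (log2 fold -0.51, SE 0.15, adjusted p = 0.0304) and Atp6v0a1 (log2 fold -0.34, SE 0.12, adjusted p = 0.0483) had the negative ones. The Ctsd term was lost without DOX_NMN replicate 2 or 3, DOX_Vehicle replicate 3 or 4, Sham_NMN replicate 1 or 3 or Sham_Vehicle replicate 1 or 2 (adjusted p 0.0572 to 0.0688), and the Atp6v0a1 term held only without DOX_Vehicle replicate 1 or 2 (adjusted p 0.0533 to 0.109 in the other 14 omissions). Calls were gained without single libraries for 9 other genes: for Ctsl, Neu1, Atp6v1b2 and Tpp1 without DOX_Vehicle replicate 1 or replicate 2, for Tfeb without DOX_Vehicle replicate 2 (0.96, adjusted p = 0.00792), for Gusb without DOX_NMN replicate 1 or Sham_Vehicle replicate 2, for Atp6ap1 and Gaa without DOX_NMN replicate 1, and for Lipa without Sham_NMN replicate 4 (-0.48, adjusted p = 0.0183).

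The doxorubicin effect was then read within each part of the library split, from 2 DOX_Vehicle and 2 Sham_Vehicle libraries in each. In the larger part 12 of the 36 genes rose (beside 13.6% of all genes tested there) and 1 fell (beside 13.9%). In the smaller part 17 rose (beside 30.6%) and 9 fell (beside 30.1%). Some of these were not called in all libraries. Mcoln1 (log2 fold 0.45, adjusted p = 0.00506), Lipa (0.33, adjusted p = 0.0153), Npc2 (0.31, adjusted p = 0.0178) and Atp6v1d (0.21, adjusted p = 0.0491) rose there. Atp6ap1 (-0.29, adjusted p = 0.0124) and Ctsb (-0.21, adjusted p = 0.0409) fell there. None of them was called in the larger part. Tfe3 and Grn, also called there, are described below. Whether the DOX_Vehicle libraries of the 2 parts differed beyond the difference between the parts in the other groups was tested in the whole table, in a test added after the data were seen. It was called for 8 of the 36 genes, 4 higher in the smaller part (beside 11.5% of all genes) and 4 lower (beside 12.6%).

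Neu1 showed the largest such difference, with folds of -0.11 in the larger part (adjusted p = 0.552) and 1.35 in the smaller part (adjusted p = 4.92e-07). The test gave a difference 1.49, SE 0.12, adjusted p = 5.79e-07. Grn changed direction, with folds of 0.53 in the larger part (adjusted p = 0.012) and -0.68 in the smaller part (adjusted p = 6.82e-05). Its test gave a difference -1.18, SE 0.15, adjusted p = 3.70e-05. The rise of Ctsl was present in both parts, at 0.99 in the larger part (adjusted p = 0.0159) and 2.35 in the smaller part (adjusted p = 3.36e-09), and differed in size (difference 1.29, SE 0.29, adjusted p = 0.0041). Atp6v1b2 had folds of 0.14 in the larger part (adjusted p = 0.327) and 0.94 in the smaller part (adjusted p = 1.75e-06), with a difference 0.76, SE 0.12, adjusted p = 0.000251. Lipa was the other gene with a positive difference (0.33, SE 0.12, adjusted p = 0.0495). Its DOX_Vehicle libraries had 32.9 and 31.5 CPM in the larger part and 32.5 and 34.7 in the smaller part. In the other groups Lipa was lower in the smaller part (log2 difference -0.27).

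Tfeb mRNA had folds of -0.35 in the larger part (adjusted p = 0.068) and -1.25 in the smaller part (adjusted p = 3.29e-06), with a difference -0.91, SE 0.14, adjusted p = 0.000363. Tfe3, the related factor, was 0.13 in the larger part (adjusted p = 0.549) and -0.41 in the smaller part (adjusted p = 0.0158), with a difference -0.57, SE 0.17, adjusted p = 0.0228. Tpp1 was -0.10 in the larger part (adjusted p = 0.462) and -0.41 in the smaller part (adjusted p = 0.00139), with a difference -0.39, SE 0.11, adjusted p = 0.0165. Lamp2, Ctsd, Gaa, Hexa, Atp6v1h and all 3 V0 subunits among the 36 rose and Glb1 fell within each part taken alone. None of these 9 passed the test of the difference. Calls of 6 further genes held in 1 part only, without passing that test. On the log2 scale Atp6v1a, the catalytic subunit, was -0.14 in the larger part (adjusted p = 0.438) and -0.60 in the smaller part (adjusted p = 0.000575). Atp6v1c1 was 0.32 in the larger part (adjusted p = 0.059) and 0.72 in the smaller part (adjusted p = 2.48e-05), Atp6v1e1 was 0.23 in the larger part (adjusted p = 0.131) and 0.50 in the smaller part (adjusted p = 0.000268), and Gusb was -0.66 in the larger part (adjusted p = 0.0503) and -1.23 in the smaller part (adjusted p = 1.13e-05). Those 4 calls held in the smaller part. Ctsa was 0.36 in the larger part (adjusted p = 0.0272) and 0.05 in the smaller part (adjusted p = 0.58) and Psap was 0.35 in the larger part (adjusted p = 0.0285) and 0.22 in the smaller part (adjusted p = 0.0573), calls that held in the larger part. Outside DOX_Vehicle the parts differed for 3 of the 36 genes (beside 3.34% of all genes higher and 4.59% lower in the smaller part), namely Npc1 (-0.53, adjusted p = 0.000325) and Lipa (-0.27, adjusted p = 0.0181), which were lower in the smaller part, and Atp6v1d (0.27, adjusted p = 0.037), which was higher.

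**Figure D4:**
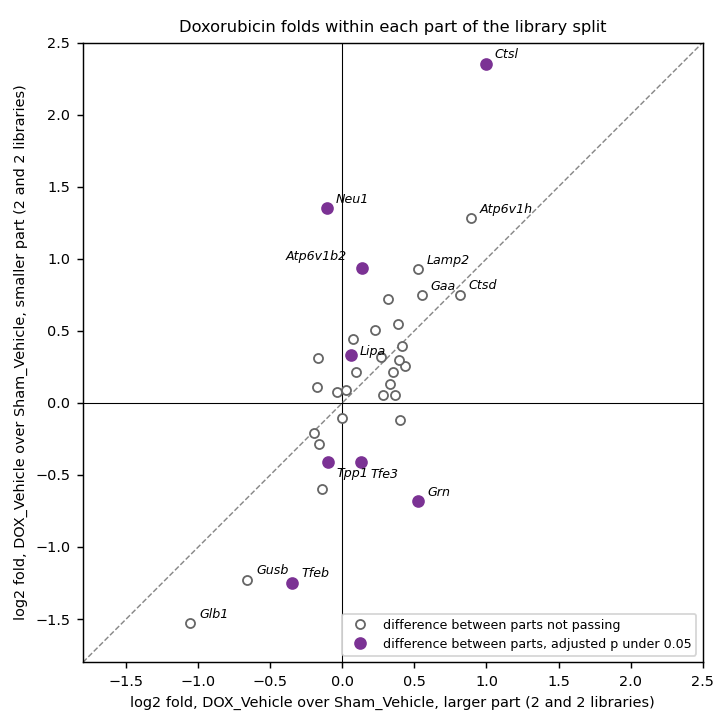
Log2 fold of DOX_Vehicle over Sham_Vehicle for each of the 36 genes within the larger part of the library split (x axis) and the smaller part (y axis), with the dashed line where both are equal. Filled points are the 8 genes whose difference passed an adjusted p of 0.05, among which Neu1, Ctsl and Grn lie farthest from the line.

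The smaller part holds 1 DOX_NMN and 1 Sham_NMN library, so its values for comparisons with NMN are given without a test, and the larger part is tested on 3 libraries of each NMN group. For DOX_NMN against DOX_Vehicle, 5 of the 14 called genes were also called in the larger part. On the log2 scale, Lamp2 was -0.41 in the larger part (adjusted p = 0.0207) and -0.54 in the smaller part, Atp6v1h was -0.81 in the larger part (adjusted p = 0.000327) and -0.93 in the smaller part, and Glb1 was 0.75 in the larger part (adjusted p = 0.0214) and 1.37 in the smaller part. Ctsd, the aspartic protease, was -0.48 in the larger part (adjusted p = 0.00605) and -0.33 in the smaller part, and Atp6v0a1 was -0.26 in the larger part (adjusted p = 0.032) and -0.48 in the smaller part.

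The other 9 did not pass in the larger part. Gusb was 0.63 in the larger part (adjusted p = 0.0526) and 0.59 in the smaller part, Tpp1 was 0.24 in the larger part (adjusted p = 0.0662) and 0.62 in the smaller part, and Tfeb was 0.32 in the larger part (adjusted p = 0.076) and 1.20 in the smaller part. Among the pump genes, Atp6v0d1 was -0.25 in the larger part (adjusted p = 0.138) and -0.31 in the smaller part, Atp6v1c1 was -0.22 in the larger part (adjusted p = 0.147) and -0.24 in the smaller part, and Atp6ap1 was 0.12 in the larger part (adjusted p = 0.38) and 0.49 in the smaller part. Atp6v1b2 was -0.16 in the larger part (adjusted p = 0.224) and -0.73 in the smaller part. Ctsl was -0.31 in the larger part (adjusted p = 0.39) and -1.31 in the smaller part. Neu1 was 0.13 in the larger part (adjusted p = 0.435) and -1.34 in the smaller part. Grn, which was not called in all libraries, was -0.53 in the larger part (adjusted p = 0.00819) and 0.69 in the smaller part. Ctsh, not called in all libraries either, was -0.41 in the larger part (adjusted p = 0.0394) and -0.12 in the smaller part.

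Of the 5 interaction terms, Atp6v1h and Ctsd passed in the larger part and the other 3 did not. Grn, not called in all libraries, passed in the larger part (-0.64, adjusted p = 0.0373). Atp6v1h was -0.80 in the larger part (adjusted p = 0.00829) and -1.003 in the smaller part, and Ctsd was -0.67 in the larger part (adjusted p = 0.0154) and -0.08 in the smaller part, where it lay near 0. Glb1 was 0.73 in the larger part (adjusted p = 0.124) and 1.53 in the smaller part, Lamp2 was -0.40 in the larger part (adjusted p = 0.135) and -0.62 in the smaller part, and Atp6v0a1 was -0.24 in the larger part (adjusted p = 0.205) and -0.45 in the smaller part. For DOX_NMN against Sham_NMN, a fit of the smaller part alone called 7 of the 36 genes higher (beside 5.74% of all genes tested there), from 1 library of each group, which is no test of the groups.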

How the data were processed

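Libraries of 16 mouse hearts or heart pools were made with a NEBNext Ultra RNA kit, per the labels' protocols, and this kit does not keep strand. The submitters' processing notes name HISAT2 2.1.0 (an aligner), HTSeq 0.6.0 (a read counter) and the build GRCm38. No source used here gives the annotation release or the strand setting. The authors deposited whole-number read counts per gene and FPKM values for 30884 genes. The deposited FPKM follow from these counts, gene lengths and totals (largest relative deviation 9.5e-15) and served only to order levels between genes.

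The counts were fitted with edgeR 4.0.16 in R 4.3.3, with TMM scaling (factors 0.929 to 1.08), edgeR's default filter on low counts, 1 fit of 4 groups and quasi-likelihood tests. P-values were adjusted by Benjamini-Hochberg over 14716 genes, with calls at 0.05, and are two-sided. SE is the absolute log2 fold divided by the square root of F. The common dispersion was 0.0377, a biological coefficient of variation of 19.4%. Totals of 13927970 to 16400069 counts put 3 counts at 0.183 to 0.215 CPM, below every level reported for the 36 genes, and counting error is only part of the spread. The scripts were tested on simulated data. Exon overlaps were read from an annotation of the same build with the same positions for all 36 genes, and promoters from RefSeq. The alternatives were RLE and upper quartile scaling, no filter, DESeq2 1.42.0, limma-voom 3.58.1, other designs, within-part fits and leaving out each library. Robust dispersion and the test of the DOX_Vehicle difference between library parts were added after the data were seen.

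The genes, the other lists and the markers were chosen with earlier results of these data known. Genes with a value for every library were Lamp1, Lamp2, Tfeb, Tfe3, Mcoln1, the 10 smallest p for doxorubicin, the 6 smallest for DOX_NMN against DOX_Vehicle and the 4 smallest for the interaction, the called genes that fell with doxorubicin, and, after their values were seen, Neu1 and Grn. In the other lists genes were named from the 4 smallest p for doxorubicin, and some are not reported here. Mitf, Cd63 and Rraga were chosen for DOX_NMN against DOX_Vehicle after their values were seen.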

Additional observations from a re-analysis of the deposited data

Results flagged for a closer look

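In 7 of 144 gene and group combinations 1 library stood apart from the other 3 by Dixon's test at 95%, which chance alone gives in about 1 in 20. Ctsa had 124 CPM in DOX_Vehicle replicate 1, against 107 to 109 in the other 3, and Ctsh had 37.0 CPM there, against 28.5 to 29.9. Man2b1 had 40.1 CPM in DOX_Vehicle replicate 2, against 50.7 to 51.8. Sham_NMN replicate 4, the only library of its group in the smaller part of the library split, stood apart for 4 genes. It had 22.0 CPM for Gusb, against 20.3 to 20.5, 25.8 CPM for Lipa, against 35.0 to 36.3, 23.7 CPM for Mcoln1, against 30.9 to 31.9, and 34.0 CPM for Atp6v1c1, against 38.3 to 38.8.

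The effect of doxorubicin differed between mice with and without NMN, by the interaction term, for 5 of the 36 genes, 1 above 0 (2.78%, beside 9.49% of all genes) and 4 below (11.1%, beside 8.96%), shares that do not stand out from those of all genes. On the log2 scale the term was -0.963 for Atp6v1h, -0.567 for Lamp2, -0.505 for Ctsd, -0.344 for Atp6v0a1 and 1.05 for Glb1.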

How the results depend on the processing

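Of the 20 genes called for DOX_Vehicle against Sham_Vehicle, 13 kept their call under every alternative other than the within-part fits, and so did 7 of 14 for DOX_NMN against DOX_Vehicle and 2 of 5 for the interaction (Atp6v1h and Glb1). For DOX_Vehicle against Sham_Vehicle, the 5 lower became 3 with only the groups compared, 1 in the larger part and 9 in the smaller part. For DOX_NMN against DOX_Vehicle, the 5 higher became 3 at an adjusted p of 0.01, 3 with only the groups compared and 1 in the larger part, and the 9 lower became 4 at 0.01 and 4 with only the groups compared. For DOX_NMN against Sham_NMN, the smaller part alone, with 1 library a group assumed to vary like the others, called 7 higher (beside 5.74% of all genes there) where all libraries called 0. For the interaction, the 1 higher became 2 with DESeq2, 3 with the library part as a term and 0 in the larger part, and the 4 lower became 1 at 0.01. Interaction calls of the smaller part are not counted here, since it holds 1 library of each NMN group. Leaving out 1 library at a time gave 12 to 16 higher and 4 to 6 lower for DOX_Vehicle against Sham_Vehicle, and 4 to 6 higher and 4 to 10 lower for DOX_NMN against DOX_Vehicle, with 4 lower without DOX_Vehicle replicate 3 or replicate 4. It gave 1 to 3 higher and 2 to 7 lower for the interaction, with 2 lower without any of 8 libraries and 7 without DOX_Vehicle replicate 1 or 2. Called folds turned direction in the within-part fits only, while folds near 0 that were not called also crossed 0 under other alternatives, such as Grn for DOX_Vehicle against Sham_Vehicle (-0.26 to 0.20). Neu1 was -0.11 in the larger part for DOX_Vehicle against Sham_Vehicle and 0.13 there for DOX_NMN against DOX_Vehicle. Grn in the smaller part was -0.68 for DOX_Vehicle against Sham_Vehicle, 0.69 for DOX_NMN against DOX_Vehicle and 0.65 for the interaction. The cause of these changes was not tested, beyond fewer samples in the within-part and leave-one-out fits. Upper quartile scaling moved the median of all genes for DOX_Vehicle against Sham_Vehicle to -0.0732. A fit of only the groups compared does not apply to the interaction.

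With the replicate number as a block, 15 genes were higher and 5 lower for DOX_Vehicle against Sham_Vehicle, 4 higher and 9 lower for DOX_NMN against DOX_Vehicle, and 2 higher and 3 lower for the interaction. Same-numbered libraries correlated at -0.12 to 0.40 in their deviations from the group means. The highest values, 0.40 for the sham groups and 0.24 for the doxorubicin groups, were those of replicate 4. That replicate lay in the smaller part of the library split in every group, so these correlations cannot tell pairing from the split. Replicates are told apart by a number alone, and the numbers were not taken to pair samples.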
